A study of Homo sapiens with 16 samples.

Results

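A set of 10 genes known as targets of the hypoxia-inducible factors (HIF) and lying outside glycolysis was followed in H9 human embryonic stem cells: CA9, CA12, VEGFA, ADM, ANKRD37, NDRG1, BHLHE40, P4HA1, ERO1L and INSIG2. They were picked by name as classical hypoxia-induced genes, at a time when earlier results of these data were known. All 10 were among the 28252 genes of the deposited table, ERO1L under its current symbol ERO1A. H9 is an established line of pluripotent cells, grown here without feeder cells in mTeSR1 medium. Cells received an siRNA labelled siOCT4, named for the pluripotency factor OCT4 (gene POU5F1), or an siRNA labelled NC, an abbreviation that the labels do not spell out. Each was kept at 20% oxygen, the usual level of an incubator, or at 1% oxygen, a hypoxic level. This gave 4 groups with 2 replicates each, all of the same line: NC at 20%, NC at 1%, siOCT4 at 20% and siOCT4 at 1%. The replicates are called cultures here, although the labels do not say that they were grown separately. The spread behind each p-value may therefore be technical. From each culture 1 library of total RNA and 1 library of RNA in ribosome-nascent chain complexes (RNC, mRNA caught with ribosomes and the growing peptide) were sequenced, 16 libraries in all. The value per gene and culture is the translation ratio, the RNC level over the RNA level.

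HIF is a transcription factor of an alpha and a beta subunit. When oxygen is plentiful, prolyl hydroxylases mark the alpha subunit for destruction through the VHL protein; when oxygen is scarce, the alpha subunit accumulates and the dimer switches on genes that carry a hypoxia response element. Their products adapt pH, blood supply, matrix assembly, protein folding and lipid synthesis to low oxygen. That control acts on the amount of mRNA, whereas a translation ratio describes how much of the mRNA present is found with ribosomes.

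A rise of the ratio can come from more RNC-bound RNA or from less total RNA, and the ratio gives neither level. These are bulk cultures, in which a different mixture of cells and a change within each cell cannot be told apart. The depth behind each ratio is unknown, so no counting interval can be given. A ratio shared by 3 or more genes of a culture is called recurrent here, since small whole read numbers can form only a limited set of ratios. CA9 had a recurrent ratio in 8 of 8 cultures, ANKRD37 in 5, CA12 in 4, NDRG1, P4HA1 and ERO1A in 1 each, and VEGFA, ADM, BHLHE40 and INSIG2 in 0. Of 12 marker genes of pluripotent stem cells, 12 had a ratio in every culture and none of these was recurrent. Markers of fibroblasts (4 of 7), trophectoderm (3 of 5) and endothelium (4 of 5) also had a ratio in every culture, so a cell type cannot be read from the presence of a ratio. The siRNA's own target POU5F1 had ratios of 0.758 and 0.981 in NC at 20%, 1.13 and 0.810 in NC at 1%, 1.41 and 1.42 in siOCT4 at 20% and 0.453 and 0.532 in siOCT4 at 1%. These values do not show how far its mRNA was lowered.

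The base composition of transcripts touches most of the results and is therefore given beside them. Across the tested genes, transcript GC content accounted for 71.8% and 65.1% of the variance of the log2 ratio in the NC cultures at 20%, and for 64.3% and 66.3% in the siOCT4 cultures at 1%. The shares were 0.0929% and 10.03% in NC at 1%, and 14.4% and 9.32% in siOCT4 at 20%. GC content was taken from 1 transcript per gene, and other transcripts were not tried. For VEGFA that transcript had 1199 bases, a short one (length percentile 8.72 among tested genes), and its corrected values rest on this choice. The members span the scale of GC content. CA9 (60.1% GC), ADM (58.5%), NDRG1 (58.0%), ANKRD37 (55.3%) and VEGFA (54.7%) have GC-rich transcripts, BHLHE40 (52.0%) and CA12 (50.2%) lie near the median of 49.7%, and P4HA1 (40.9%), ERO1A (38.7%) and INSIG2 (36.9%) are AT-rich. Changes are differences of group means of the log2 ratio with n = 2 cultures per group, tested with limma over all 15864 genes that had a ratio in every culture, and a gene is said to rise or fall where its adjusted p was under 0.05. Each change is given as deposited and GC corrected, where the correction takes from each log2 ratio the trend on GC content in its own culture. The part of GC content in the deposited changes, and any real difference that the correction removes, was not tested.

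The promoters are shown because a HIF binding core upstream of the start is the one feature that the choice of these genes by name invites a reader to look for. The core of a hypoxia response element is written ACGTG or GCGTG; it was searched on both strands in the 250 bases before each RefSeq start on GRCh38.p14. Promoter entries were found for 8 members, all but VEGFA and NDRG1. ACGTG was present in 6 of these 8. Of 22199 promoter windows of protein-coding genes, 20.2% held ACGTG, 38.3% held GCGTG and 49.3% held at least 1 of them. The windows below run 5′ to 3′ on the gene's strand, with the match in capitals, as ACGTG or as its reverse complement CACGT; where these overlap as CACGTG, both strands match.
CA9 (chr9:35673892-35673927, plus strand): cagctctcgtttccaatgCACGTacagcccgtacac
BHLHE40, first window (chr3:4979187-4979215, plus strand): tccaaCACGTGagactcatgtgatgaagc
BHLHE40, second window (chr3:4979245-4979285, plus strand): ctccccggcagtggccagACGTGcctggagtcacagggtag
BHLHE40, last window (chr3:4979270-4979310, plus strand): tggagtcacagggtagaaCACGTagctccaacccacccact
ANKRD37 (chr4:185396661-185396720, plus strand): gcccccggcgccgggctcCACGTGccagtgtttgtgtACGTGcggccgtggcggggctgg
P4HA1 (chr10:73096930-73096970, minus strand): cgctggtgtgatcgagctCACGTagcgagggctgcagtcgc
ERO1A (chr14:52695650-52695690, minus strand): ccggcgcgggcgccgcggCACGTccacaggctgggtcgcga
INSIG2 (chr2:118088358-118088398, plus strand): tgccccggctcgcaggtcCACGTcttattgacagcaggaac

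In CA9 the match began 18 bases before the start, the nearest of the set. BHLHE40 had 4 matches between 245 and 149 bases before its start, and ANKRD37 had 3 between 162 and 143 bases before its start. P4HA1 and ERO1A each had 1, at 86 and 114 bases, and the match of INSIG2 lay 95 or 174 bases before its 2 annotated starts. ADM and CA12 held GCGTG and no ACGTG in this window. A match is a description of the letters and not evidence of binding.

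Among the regulators, BHLHE40, a basic helix-loop-helix repressor that also feeds into the circadian clock, had the widest range of the members with no recurrent ratio. Its ratio was 0.167 and 0.148 in NC at 20%, 3.06 and 3.29 in NC at 1%, 0.918 and 0.953 in siOCT4 at 20% and 1.92 and 1.84 in siOCT4 at 1%. The 4 groups were fully separate, with NC at 20% lowest and NC at 1% highest. Such separation was common. Between siOCT4 and NC cells, 81.2% of all tested genes had groups apart at 20% oxygen and 82.7% at 1%. Between the oxygen levels it was 79.0% in NC cells and 84.5% in siOCT4 cells. Of the members, 8, 8, 8 and 7 were apart in the same order, so separate groups alone do not mark out a gene. In NC cells the ratio of BHLHE40 rose 20.1-fold with 1% oxygen (log2 change 4.33 ± 0.13 SE, limma adjusted p = 0.000152), and by 4.21 ± 0.13 GC corrected (adjusted p = 0.000257). That moved it from percentiles 1.87 and 0.410 of all tested genes to percentiles 98.2 and 98.9. In siOCT4 cells it rose by 1.01 ± 0.13 (adjusted p = 0.00153), and by 0.96 ± 0.13 GC corrected (adjusted p = 0.00471). With siOCT4 at 20% oxygen it rose by 2.57 ± 0.13, and at 1% it fell by 0.75 ± 0.13. GC corrected, the latter values were 2.40 ± 0.13 (adjusted p = 0.00478) and -0.86 ± 0.13 (adjusted p = 0.00431). The corrected rise at 20% did not pass without siOCT4 replicate 1 (adjusted p = 0.0733) or replicate 2 (0.0739) at 20% oxygen.

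NDRG1, a stress-responsive cytoplasmic protein that restrains growth and metastasis in several tumours, had the same order at its ends. Its ratio was 0.206 and 0.301 in NC at 20%, 2.26 and 1.92 in NC at 1%, 1.06 and 1.04 in siOCT4 at 20% and 0.584 and 0.734 in siOCT4 at 1%. The groups did not overlap. In NC cells 1% oxygen raised it 8.38-fold (3.07 ± 0.24, adjusted p = 0.000222), and by 2.51 ± 0.14 GC corrected (adjusted p = 0.000479). In siOCT4 cells it was lower at 1% than at 20% (-0.69 ± 0.24, adjusted p = 0.0463). That call did not pass in 6 of 8 fits with a culture left out: without NC replicate 1 (adjusted p = 0.0684) or 2 (0.0690) at 1%, siOCT4 replicate 1 (0.202) or 2 (0.0719) at 1%, or siOCT4 replicate 1 (0.151) or 2 (0.142) at 20%. GC corrected, the same difference was -0.04 ± 0.14 (adjusted p = 0.852). With siOCT4 the ratio rose by 2.08 ± 0.24 at 20% oxygen (1.39 ± 0.14 GC corrected) and fell by 1.67 ± 0.24 at 1% (-1.16 ± 0.14 GC corrected). The corrected rise at 20% had an adjusted p of 0.0147, and of 0.111 and 0.113 without siOCT4 replicate 1 or 2 at 20%.

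ANKRD37, a small ankyrin-repeat protein, passed the test in no comparison. Its ratio was 0.738 and 1.03 in NC at 20%, 2.29 and 0.825 in NC at 1%, 1.24 and 2.28 in siOCT4 at 20% and 0.863 and 0.842 in siOCT4 at 1%. Replicate 2 of NC at 1% oxygen lay between the NC cultures at 20%, and replicate 1 above both. The log2 difference between them was 0.66 ± 0.54 (adjusted p = 0.326), and 0.27 ± 0.50 GC corrected. The value rested on which of the NC cultures at 1% was used, since it was 1.40 without replicate 2 (adjusted p = 0.0435) and -0.08 without replicate 1 (0.888). The difference of siOCT4 from NC at 1% oxygen was likewise -1.43 without replicate 2 (adjusted p = 0.0397) and 0.048 without replicate 1 (0.934). The interaction described further on was -2.38 (adjusted p = 0.0152) and -0.90 (0.206) in these fits.

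Of the secreted factors, VEGFA, the growth factor that drives blood vessel formation, had ratios of 0.753 and 0.725 in NC at 20%, 2.29 and 1.96 in NC at 1%, 1.06 and 1.03 in siOCT4 at 20% and 1.08 and 1.02 in siOCT4 at 1%. NC at 1% stood above every other culture, and the siOCT4 cultures of both oxygen levels overlapped. In NC cells the ratio rose 2.87-fold (1.52 ± 0.13, adjusted p = 0.000303), and 2.26-fold GC corrected (1.18 ± 0.14, adjusted p = 0.00197). In siOCT4 cells the difference was 0.01 ± 0.13 (adjusted p = 0.973), and 0.32 ± 0.14 GC corrected (adjusted p = 0.127). With siOCT4 at 1% oxygen the ratio was 2.02-fold lower (-1.01 ± 0.13, adjusted p = 0.00131), and 1.74-fold lower GC corrected (-0.80 ± 0.14, adjusted p = 0.00689). At 20% it rose by 0.50 ± 0.13 (adjusted p = 0.0220) as deposited, whereas the corrected difference was 0.06 ± 0.14. With transcript length corrected as well, taking a transcript of 1199 bases for VEGFA, the ratio rose with 1% oxygen in siOCT4 cells too (0.79, adjusted p = 0.0102). The difference of siOCT4 from NC at 1% oxygen was then -0.38 (adjusted p = 0.0589). The deposited call at 20% was lost without NC replicate 1 (adjusted p = 0.0563) or 2 (0.0551) and without siOCT4 replicate 1 (0.106) or 2 (0.0927) at 20% oxygen.

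ADM, the precursor of the vasodilator peptide adrenomedullin, moved in smaller steps. Its ratio was 0.745 and 0.626 in NC at 20%, 1.80 and 1.59 in NC at 1%, 1.19 and 1.12 in siOCT4 at 20% and 0.955 and 0.980 in siOCT4 at 1%. The 4 groups did not overlap. In NC cells 1% oxygen raised it 2.48-fold (1.31 ± 0.15, adjusted p = 0.000666). The corrected rise was 0.72 ± 0.23 (adjusted p = 0.0458) and passed in 1 of 8 fits with a culture left out, the one without NC replicate 1 at 20% (adjusted p = 0.00943); in the other 7 the adjusted p ran from 0.0736 to 0.137, and the difference was 0.40 without NC replicate 2 at 20%. With siOCT4 it rose by 0.76 ± 0.15 at 20% (adjusted p = 0.00750, but 0.0520 without siOCT4 replicate 1 at 20%) and fell by 0.81 ± 0.15 at 1% (adjusted p = 0.00449). GC corrected, these differences were 0.03 ± 0.23 (adjusted p = 0.934) and -0.26 ± 0.23 (adjusted p = 0.399). In siOCT4 cells the difference between 1% and 20% oxygen was -0.26 ± 0.15 (adjusted p = 0.179). GC corrected it was 0.43 ± 0.23 (adjusted p = 0.191), or 0.0490 without NC replicate 1 at 20%.

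**Figure D1:**
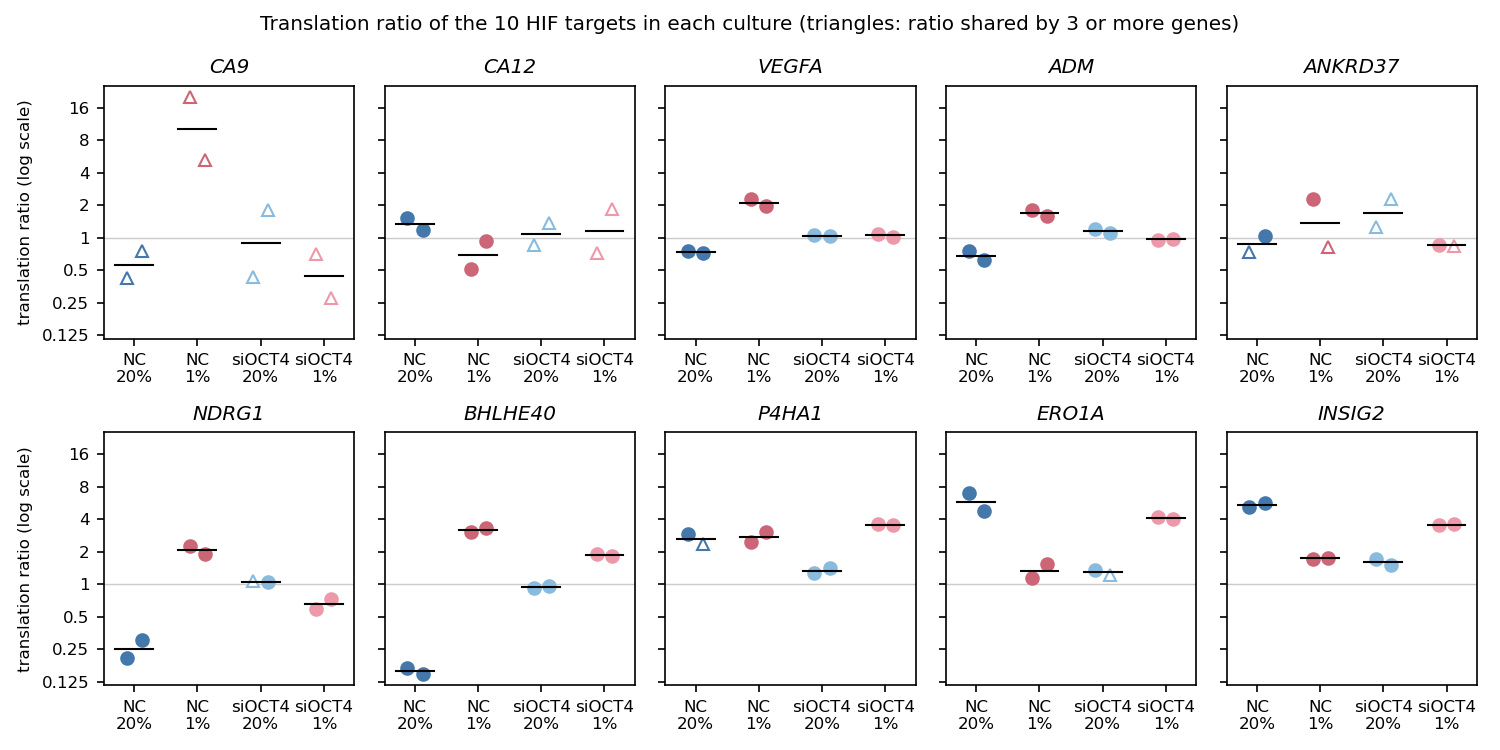
Translation ratio (log scale) of the 10 genes in each culture by group, with filled circles for single ratios, open triangles for ratios shared by 3 or more genes of the culture, and a bar at the geometric mean. BHLHE40 ran from 0.148 in NC at 20% to 3.29 in NC at 1%, while the triangles of CA9 spread within each group.

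Carbonic anhydrases turn carbon dioxide and water into bicarbonate and protons, and CA9 and CA12 do so at the outer face of the plasma membrane. CA9, a sensitive marker of hypoxia, had ratios of 0.422 and 0.752 in NC at 20%, 20.0 and 5.26 in NC at 1%, 0.434 and 1.82 in siOCT4 at 20% and 0.712 and 0.277 in siOCT4 at 1%. Only NC at 1% stood apart from the other groups. Within that group the ratio of 5.26 was shared with other genes, 53 in all, and the ratio of 1.82 in siOCT4 at 20% was held by 252 genes. The log2 change with 1% oxygen in NC cells was 4.19 ± 0.96 (adjusted p = 0.0118), or 18.2-fold. It did not pass without NC replicate 1 at 20% (3.77, adjusted p = 0.0628) or NC replicate 1 at 1% (3.22, adjusted p = 0.0614). GC corrected it was 3.51 ± 0.90 (adjusted p = 0.0246), and it did not pass without NC replicate 1 (adjusted p = 0.0969) or 2 (0.0700) at 20% or NC replicate 1 at 1% (2.70, adjusted p = 0.106). With siOCT4 at 1% oxygen the ratio was lower by -4.53 ± 0.96 (adjusted p = 0.00863), and by -3.86 ± 0.90 GC corrected (adjusted p = 0.0187). The corrected call was lost without NC replicate 1 (-3.06, adjusted p = 0.0860) or siOCT4 replicate 2 (-3.20, adjusted p = 0.0891) at 1%.

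CA12 had the narrowest spread of group means of the 10. Its ratio was 1.54 and 1.17 in NC at 20%, 0.508 and 0.937 in NC at 1%, 0.855 and 1.37 in siOCT4 at 20% and 0.720 and 1.84 in siOCT4 at 1%. All pairs of groups overlapped except NC at 1% and NC at 20%, of which the first was lower. That difference was -0.96 ± 0.54 (adjusted p = 0.173), and CA12 passed in no comparison.

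The last members act in the endoplasmic reticulum. P4HA1, the catalytic subunit of the prolyl 4-hydroxylase that stabilises collagen, had ratios of 2.92 and 2.34 in NC at 20%, 2.44 and 3.05 in NC at 1%, 1.27 and 1.41 in siOCT4 at 20% and 3.60 and 3.55 in siOCT4 at 1%. The NC groups overlapped, siOCT4 at 20% was lowest and siOCT4 at 1% highest. In NC cells the deposited difference between 1% and 20% oxygen was 0.06 ± 0.18 (adjusted p = 0.780), and the GC corrected ratio rose by 1.83 ± 0.12 (adjusted p = 0.000537). The same near-equal ratios lay at percentiles 74.3 and 71.0 of all tested genes at 20% and at percentiles 96.5 and 98.5 at 1%. In siOCT4 cells the deposited ratio rose by 1.42 ± 0.18 (adjusted p = 0.00153), whereas the corrected difference was 0.07 ± 0.12 (adjusted p = 0.667). With siOCT4 at 1% oxygen the deposited difference was 0.39 ± 0.18 (adjusted p = 0.114), and the corrected ratio fell by 1.21 ± 0.12 (adjusted p = 0.00136). At 20% it fell by 0.96 ± 0.18 as deposited (adjusted p = 0.00696) and was higher by 0.54 ± 0.12 GC corrected (adjusted p = 0.0360), a corrected call that passed in 0 of 8 fits with a culture left out (adjusted p 0.0582 to 0.183).

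ERO1A, the oxidase that supplies disulfide bonds to newly made proteins, had ratios of 6.995 and 4.77 in NC at 20%, 1.14 and 1.56 in NC at 1%, 1.37 and 1.22 in siOCT4 at 20% and 4.22 and 4.04 in siOCT4 at 1%. NC at 20% and siOCT4 at 1%, the groups with a steep GC trend, were the high ones. In NC cells the deposited ratio fell by 2.12 ± 0.25 with 1% oxygen (adjusted p = 0.000749), and in siOCT4 cells it rose by 1.67 ± 0.25 (adjusted p = 0.00230). GC corrected, these differences were -0.10 ± 0.14 (adjusted p = 0.591) and 0.27 ± 0.14 (adjusted p = 0.184). With siOCT4 the deposited ratio fell by 2.16 ± 0.25 at 20% and rose by 1.63 ± 0.25 at 1%, against corrected differences of -0.44 ± 0.14 (adjusted p = 0.0861) and -0.08 ± 0.14 (adjusted p = 0.674). No corrected comparison of ERO1A passed.

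INSIG2 retains the sterol sensor SCAP in the endoplasmic reticulum and so restrains cholesterol synthesis. Its ratio was 5.25 and 5.64 in NC at 20%, 1.72 and 1.75 in NC at 1%, 1.71 and 1.504 in siOCT4 at 20% and 3.53 and 3.61 in siOCT4 at 1%. The groups did not overlap, with NC at 1% only just above siOCT4 at 20%. The deposited ratio fell 3.14-fold with 1% oxygen in NC cells (-1.65 ± 0.14, adjusted p = 0.000277), and GC corrected it was higher by 0.53 ± 0.17 (adjusted p = 0.04999). The corrected call passed in 1 of 8 fits with a culture left out, the one without NC replicate 2 at 20% (adjusted p = 0.0259). In the other 7 fits the adjusted p ran from 0.0529 to 0.199, and the difference was 0.34 without NC replicate 1 at 20%. In siOCT4 cells the deposited ratio rose by 1.16 ± 0.14 (adjusted p = 0.00124), against -0.25 ± 0.17 GC corrected (adjusted p = 0.310). With siOCT4 at 1% oxygen the deposited ratio rose by 1.04 ± 0.14 (adjusted p = 0.00139) and the corrected one fell by 0.71 ± 0.17 (adjusted p = 0.0207), a corrected call lost without NC replicate 1 (adjusted p = 0.0958), siOCT4 replicate 1 (0.0827) or siOCT4 replicate 2 (0.0788) at 1%. At 20% it fell by 1.76 ± 0.14 as deposited (adjusted p = 0.000653), with a corrected difference of 0.07 ± 0.17.

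Seen by comparison, the question of the first is what hypoxia does in cells with the NC siRNA. Of the 10 genes, 5 rose (CA9, VEGFA, ADM, NDRG1 and BHLHE40) and 2 fell (ERO1A and INSIG2) with 1% oxygen, where 20.5% of all 15864 tested genes rose and 39.6% fell. GC corrected, 7 rose and 0 fell, where 23.1% of the 15261 genes with a GC content rose and 23.1% fell. P4HA1 and INSIG2 joined the risen genes, and ERO1A left the fallen ones. Of the 12 pluripotency markers 0 rose and 9 fell here (0 and 8 GC corrected). Of 4 fibroblast markers 2 rose and 1 fell (2 and 1 GC corrected). Trophectoderm markers had 2 higher and 0 lower of 3 (2 and 1 GC corrected), and endothelium markers 1 and 2 of 4 (0 and 2 GC corrected). The part of any marker list in the members' change was not tested. The members' median log2 change was 0.98 as deposited and 0.95 GC corrected, beside -0.31 and 0.01 for all tested genes. The corrected calls of CA9, ADM and INSIG2 did not hold in all fits with 1 culture left out, as given for each gene above. In those fits the corrected change ran from 2.70 to 4.32 for CA9, from 0.40 to 1.05 for ADM and from 0.34 to 0.72 for INSIG2.

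In siOCT4 cells, the same step in oxygen gave another set of calls. As deposited, 4 of the 10 rose (BHLHE40, P4HA1, ERO1A and INSIG2) and NDRG1 was the 1 that fell, where 37.4% of tested genes rose and 21.6% fell. GC corrected, 1 rose, BHLHE40, and 0 fell, beside 18.9% and 18.1% of genes. The members' median change was 0.05 as deposited and 0.02 GC corrected, against 0.27 and 0.03 for all tested genes. Whether ADM passed GC corrected depended on NC replicate 1 at 20% oxygen, as given above. With length corrected as well, 2 members passed, BHLHE40 and VEGFA, where 4484 of 15261 genes passed in either direction. Pluripotency markers were 8 higher and 2 lower of 12 as deposited (3 and 4 GC corrected), and fibroblast markers 0 and 3 of 4 (0 and 1 GC corrected). Trophectoderm markers were 0 higher and 2 lower of 3 (1 and 1 GC corrected), and endothelium markers 2 and 0 of 4 (1 and 0 GC corrected).

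**Figure D2:**
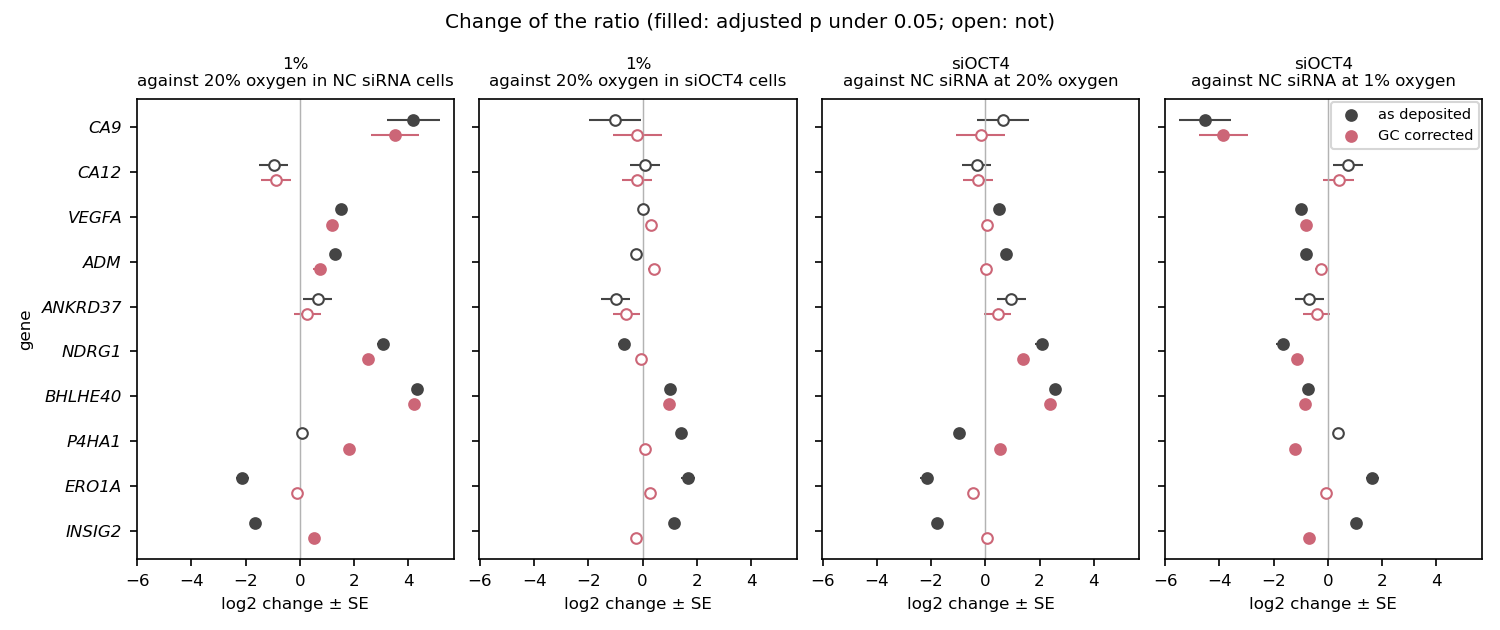
Log2 change of the translation ratio ± SE for the 10 genes in 4 comparisons, as deposited (grey) and GC corrected (red), filled where limma's adjusted p was under 0.05. BHLHE40, at 4.33 and 4.21 in NC cells, hardly differed between the scales, whereas ERO1A went from -2.12 to -0.10 and P4HA1 from 0.06 to 1.83.

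Set against NC at 20% oxygen, siOCT4 cells had 4 of the 10 genes higher (VEGFA, ADM, NDRG1 and BHLHE40) and 3 lower (P4HA1, ERO1A and INSIG2). Among all tested genes 19.2% were higher and 34.1% lower. GC corrected, 3 were higher (NDRG1, BHLHE40 and P4HA1) and 0 lower, beside 7.23% and 7.46% of genes. The median change was 0.58 as deposited and 0.06 GC corrected, and -0.09 and -0.03 over all tested genes. The corrected count was 0 without siOCT4 replicate 1 or without replicate 2 at 20% oxygen, where 2 and 3 of all 15261 genes passed. Of the pluripotency markers 2 were higher and 6 lower (1 and 2 GC corrected), and of 4 fibroblast markers 3 were higher and 0 lower (1 and 0 GC corrected). Trophectoderm markers were 1 higher and 0 lower of 3 (1 and 0 GC corrected), and endothelium markers 0 and 2 of 4 (0 and 0 GC corrected).

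At 1% oxygen, 2 of the 10 were higher in siOCT4 cells (ERO1A and INSIG2) and 5 lower (CA9, VEGFA, ADM, NDRG1 and BHLHE40), where 41.1% of tested genes were higher and 19.9% lower. GC corrected, 0 were higher and 6 lower (CA9, VEGFA, NDRG1, BHLHE40, P4HA1 and INSIG2), beside 21.7% and 22.7% of genes. The median change of the 10 was -0.72 as deposited and -0.75 GC corrected, and over all tested genes 0.42 and -0.02. VEGFA, NDRG1 and BHLHE40 passed as lower on both scales whichever culture was left out, although VEGFA did not with length corrected as well (adjusted p = 0.0589). The pluripotency markers went the other way, with 10 of 12 higher and 1 lower (9 and 2 GC corrected). Of 4 fibroblast markers 0 were higher and 2 lower (1 and 1 GC corrected). Trophectoderm markers were 0 higher and 1 lower of 3 (0 and 1 GC corrected), and endothelium markers 2 and 1 of 4 (2 and 1 GC corrected).

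Whether the oxygen effect differed between the siRNAs was asked by the interaction, the change with 1% oxygen in siOCT4 cells minus that in NC cells. All comparisons draw on the same 8 cultures, and pairs of them share a group, so their values are set side by side and not counted as separate evidence. As deposited the interaction was negative for 5 genes (CA9, VEGFA, ADM, NDRG1 and BHLHE40) and positive for 3 (P4HA1, ERO1A and INSIG2), where 26.2% of tested genes had a negative and 42.5% a positive one. GC corrected, 5 were negative (VEGFA, NDRG1, BHLHE40, P4HA1 and INSIG2) and 0 positive, beside 21.4% and 22.3% of genes. Of the pluripotency markers 9 were positive and 1 negative (9 and 2 GC corrected), and of 4 fibroblast markers 0 were positive and 4 negative (0 and 2 GC corrected). Trophectoderm markers were 0 positive and 1 negative of 3 (0 and 1 GC corrected), and endothelium markers 2 and 1 of 4 (2 and 0 GC corrected). The part of any marker list was not tested. BHLHE40 had -3.32 ± 0.18 as deposited and -3.26 ± 0.19 corrected (adjusted p = 8.04e-05 and 0.000916), and NDRG1 had -3.75 ± 0.33 and -2.55 ± 0.20 (adjusted p = 0.000200 and 0.00112). P4HA1 changed sign, from 1.35 ± 0.26 to -1.76 ± 0.17 (adjusted p = 0.00448 and 0.00133), as did INSIG2, from 2.81 ± 0.20 to -0.78 ± 0.24 (adjusted p = 9.97e-05 and 0.0471). The corrected call of VEGFA (-0.86 ± 0.20, adjusted p = 0.0179) was lost without siOCT4 replicate 1 (adjusted p = 0.0627) or 2 (0.0625) at 20%, and without siOCT4 replicate 1 (0.0507) or 2 (0.0595) at 1%. With length corrected as well it was -0.46 (adjusted p = 0.0897). That of INSIG2 passed in 2 of 8 such fits, without NC replicate 2 at 20% or at 1%, and its adjusted p in the other 6 ran from 0.0925 to 0.130.

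**Figure D3:**
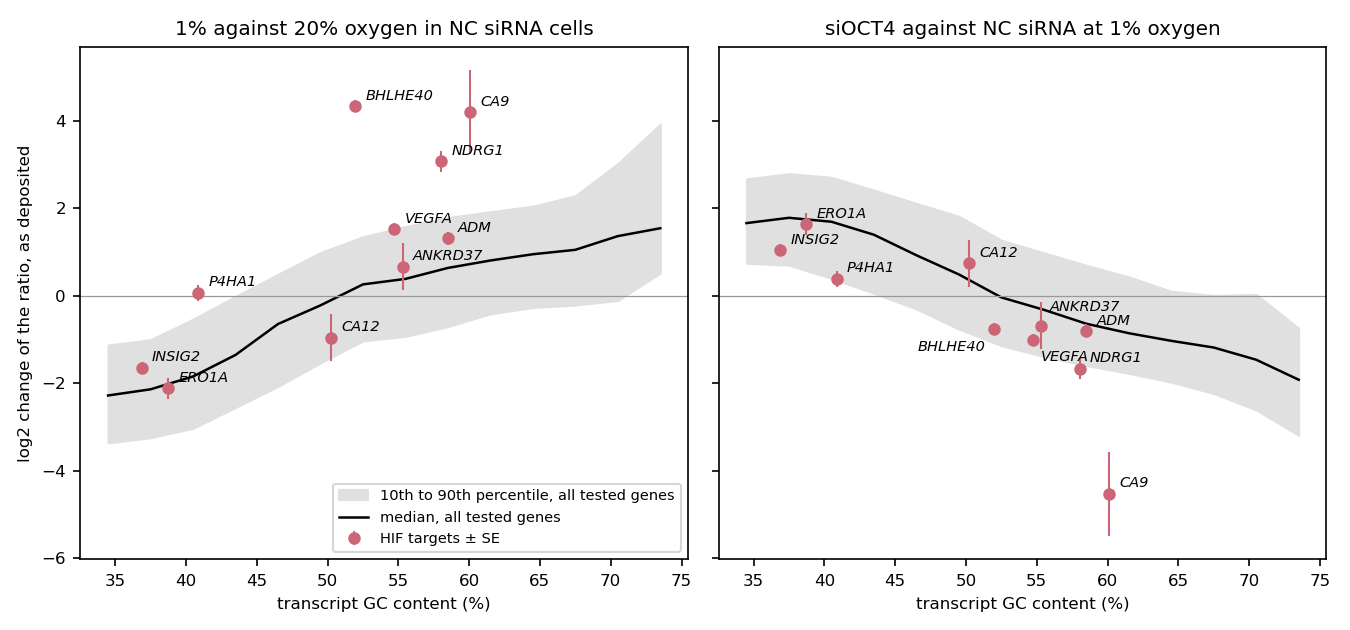
Log2 change of the ratio as deposited against transcript GC content for 1% against 20% oxygen in NC cells (left) and siOCT4 against NC at 1% oxygen (right), with the members ± SE in red, the median of all tested genes as a line and their 10th to 90th percentile in grey. ERO1A and INSIG2 lay within the grey band on the left, P4HA1 above it, and BHLHE40 and NDRG1 farther above it.

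Rank within a culture needs no scale between cultures. The number of members above the median tested gene was 4 and 3 of 10 in NC at 20%, 9 and 8 in NC at 1%, 5 and 7 in siOCT4 at 20%, and 4 and 5 in siOCT4 at 1%. GC corrected, it was 5 and 5, 9 and 8, 5 and 8, and 7 and 8. NC at 1% oxygen therefore had the most on the deposited scale, while replicate 2 of both siOCT4 groups reached the 8 of NC at 1% replicate 2 on the corrected one. The lowest member was BHLHE40 in both NC cultures at 20%, and the highest was CA9 in both NC cultures at 1%.

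A list of other HIF targets outside glycolysis, 58 in the table and 54 tested, was set beside the 10 genes. Like the members and the partners described below, it was chosen with earlier results of these data known. In NC cells 18 of the 54 rose and 14 fell with 1% oxygen as deposited, beside 20.5% and 39.6% of all tested genes. GC corrected, 30 rose and 9 fell, beside 23.1% and 23.1%. The median change of the 54 was 0.07 and 0.96, beside -0.31 and 0.01 over all tested genes. DDIT4, an inhibitor of mTORC1 signalling, had ratios of 0.0795 and 0.174 in NC at 20% and 5.47 and 3.13 in NC at 1%, so that it rose by 5.14 ± 0.43 (4.57 GC corrected, adjusted p = 0.000573). HMOX1, which breaks down heme, rose by 3.04 ± 0.29 (2.48 GC corrected), and the secreted glycoprotein STC2 rose by 2.67 ± 0.17 (2.59 GC corrected). Some members of the list went the other way on both scales: FLT1, a receptor of VEGFA, fell by 2.34 ± 0.16 (-1.34 GC corrected), and HILPDA, a lipid droplet protein, fell by 1.94 ± 0.21 (-1.95 GC corrected). PLOD2, which modifies collagen lysines, fell by 2.07 ± 0.20 as deposited, like ERO1A, and its corrected difference was 0.06 (adjusted p = 0.660).

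With siOCT4 at 1% oxygen, 16 of the 54 rose and 16 fell as deposited (median 0.12), beside 41.1% and 19.9% of all tested genes. GC corrected, 8 rose and 27 fell, beside 21.7% and 22.7% (median -0.48, all tested genes -0.02). DDIT4 fell by 2.82 ± 0.43, HMOX1 by 1.87 ± 0.29 and the matrix enzyme LOXL2 by 1.73 ± 0.19, and each passed GC corrected too (-2.30, -1.36 and -1.20). FLT1 rose by 2.10 ± 0.16 (0.98 GC corrected). At 20% oxygen, 15 rose and 17 fell with siOCT4 as deposited, beside 19.2% and 34.1% of all tested genes. GC corrected, 17 rose and 4 fell, beside 7.23% and 7.46% (median 0.26, all tested genes -0.03). Between 1% and 20% oxygen in siOCT4 cells 19 rose and 10 fell as deposited, beside 37.4% and 21.6%. GC corrected, 5 rose and 15 fell, beside 18.9% and 18.1% (median -0.06, all tested genes 0.03). The interaction was positive for 19 and negative for 21 as deposited, beside 42.5% and 26.2%. GC corrected, it was positive for 9 and negative for 25, beside 22.3% and 21.4% (median -0.91, all tested genes 0.01).

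**Figure D4:**
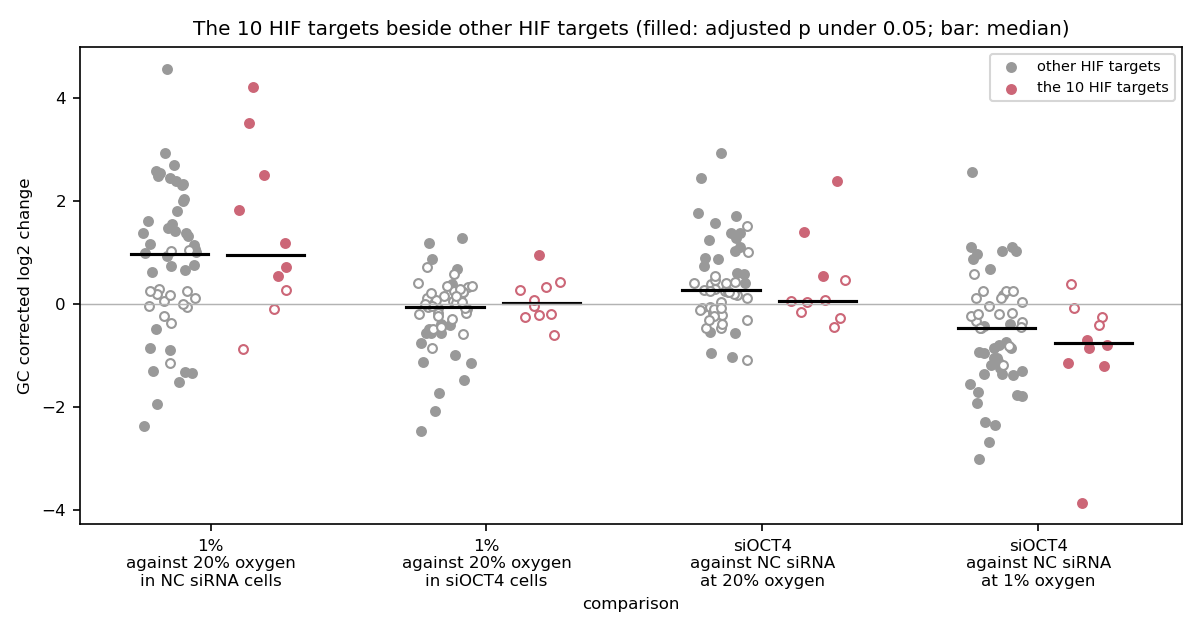
GC corrected log2 change of the 54 other HIF targets (grey) and of the 10 described here (red) in 4 comparisons, filled where the adjusted p was under 0.05, with bars at the medians. In NC cells the medians were 0.96 and 0.95, and with siOCT4 at 1% oxygen they were -0.48 and -0.75.

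Genes that work with the members (receptors, subunits, relatives and transporters, 37 tested) were spread over both directions. With 1% oxygen in NC cells 10 rose and 14 fell as deposited, beside 20.5% and 39.6% of all tested genes, and 11 rose and 9 fell GC corrected, beside 23.1% and 23.1%. Their medians were -0.33 and 0.23, against -0.31 and 0.01 over all tested genes. SREBF2, the sterol-responsive factor whose release INSIG2 restrains, rose by 1.46 ± 0.16 (0.90 GC corrected). PER1, a clock gene of the circuit in which BHLHE40 acts, rose by 1.82 ± 0.34 (0.98 GC corrected), while CLOCK itself fell by 2.84 ± 0.28 (-0.69 GC corrected). SLC4A7, a bicarbonate transporter, fell by 2.84 ± 0.17 (-0.58 GC corrected). With siOCT4 at 1% oxygen 15 rose and 11 fell as deposited (41.1% and 19.9% of all tested genes), and 7 rose and 10 fell GC corrected (21.7% and 22.7%). The largest rises there were those of CLOCK (2.48 ± 0.28, 0.73 GC corrected), SLC4A7 (2.20 ± 0.17, 0.44 GC corrected) and FLT1 (2.10 ± 0.16, 0.98 GC corrected). SLC4A2 fell by 1.56 ± 0.26 (-0.80 GC corrected) and SREBF2 by 1.33 ± 0.16 (-0.81 GC corrected). P4HB, the partner subunit of P4HA1, fell by 1.15 ± 0.15 (-0.60 GC corrected). These are the genes that the naming rule gave. Of this list, FLT1, PAM, P4HA2 and BHLHE41 also stand in the list of other HIF targets.

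Among the 10 HIF subunits and oxygen sensors, 2 rose and 2 fell with 1% oxygen in NC cells as deposited, beside 20.5% and 39.6% of all tested genes, and 4 rose and 3 fell GC corrected, beside 23.1% and 23.1%. Their medians were 0.0048 and 0.30. HIF1A, the oxygen-regulated subunit, had ratios of 6.10 and 4.64 in NC at 20%, 0.591 and 0.812 in NC at 1%, 1.24 and 1.22 in siOCT4 at 20% and 5.31 and 5.42 in siOCT4 at 1%. Like ERO1A and INSIG2, this gene with an AT-rich transcript (39.2% GC) was highest in NC at 20% and siOCT4 at 1%. The ratio fell by 2.94 ± 0.21 with 1% oxygen in NC cells (adjusted p = 0.000194), and by 0.97 ± 0.11 GC corrected (adjusted p = 0.00156). In siOCT4 cells it rose by 2.12 ± 0.21, and by 0.72 ± 0.11 GC corrected (adjusted p = 0.00583). EPAS1, the HIF-2 alpha subunit, had ratios of 0.776 and 0.892 in NC at 20% and 1.17 and 1.49 in NC at 1%. In siOCT4 cells it had 0.781 and 0.887 at 20% and 1.08 and 1.54 at 1%. Its ratio was recurrent in 2 cultures. VHL had 0.778 and 0.915 in NC at 20% against 1.54 and 1.42 in NC at 1%. In siOCT4 cells VHL had 1.08 and 1.12 at 20% against 1.36 and 1.26 at 1%. VHL is counted in the list of other HIF targets as well.

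Genes most like a member were found by the root mean square difference of log2 ratios over the 8 cultures, each gene centred on its own mean, among the 8106 tested genes with no recurrent ratio. This is a description of likeness over 8 cultures that share 4 groups. For CA9, the member with the widest range, the nearest were TXNRD2 (0.99), the lactate exporter SLC16A3 (1.06) and COL23A1 (1.09), none of them close. For CA12, with the narrowest range, they were COX19 (0.36), ACAA2 (0.38) and NPIPA3 (0.38). BHLHE40 was added after its values were seen, as the widest member free of recurrent ratios. Its nearest genes were HSPA1A (0.25) and HSPA1B (0.32), near-identical genes of an inducible HSP70 chaperone between which reads may be split, and JUN (0.32), an immediate early transcription factor. JUN, for example, had ratios of 0.0888 and 0.109 in NC at 20%, 3.58 and 2.78 in NC at 1%, 0.831 and 0.981 in siOCT4 at 20% and 1.45 and 1.38 in siOCT4 at 1%.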

How the data were processed

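The authors deposited 1 table with the ratio of RNC to RNA per gene and culture; per the submitters' processing notes edgeR and hg19 were used, while for the mapper, annotation, filters and library totals the entry is: not given in the sources used here. Columns marked "sO" were read as siOCT4. Genes with a ratio in all 8 cultures were tested (15864). The log2 ratio, with no pseudocount, was fitted with limma 3.58.1 (R 4.3.3; trend and robust settings; 4 group means, 4 residual degrees of freedom), as a two-sided test in 5 comparisons; p was adjusted by Benjamini-Hochberg over the tested genes of each, with a threshold of 0.05. The uncorrected fit was tested on simulated data with independent noise and no GC trend that differed between cultures. The GC correction was not part of that test. The labels do not say that replicates were grown separately, so a p-value measures only how these samples spread, which may be technical. The GC correction used the residual from a spline (6 degrees of freedom) on transcript GC content from GENCODE 29, matched by symbol (96.2% of tested genes). Recurrent ratios were matched within a relative tolerance of 2e-06. Members and lists were chosen with earlier results of these data known. All 10 members are named; of each list of other HIF targets and partners, the rule gave up to 3 genes per direction and comparison that passed, had no recurrent ratio and had groups apart, taken by size of change, and a subset of these is described. HIF1A, EPAS1 and VHL were named by rule. Alternatives were median centring, GC and length correction, a pseudocount of 0.1, limma without trend and robust settings, only genes without recurrent ratios, the replicate block and leaving out each culture, where a group's lone culture was assumed to vary like the others. Python 3.11.15 and matplotlib 3.10.9 made the figures.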

Additional observations from a re-analysis of the deposited data

Results flagged for a closer look

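For 8 of the 10 genes the effect of 1% oxygen differed between siOCT4 and NC cells by limma's interaction test, in log2 units. Such calls were common: as deposited, 42.5% of the 15864 tested genes passed with a positive and 26.2% with a negative interaction. As deposited the difference was -5.19 for CA9 (adjusted p = 0.0162, and 0.0548 without NC replicate 1 at 20%), -1.51 for VEGFA (0.000722), -1.57 for ADM (0.000974), -3.75 for NDRG1 (0.000200) and -3.32 for BHLHE40 (8.04e-05). It was 1.35 for P4HA1 (0.00448), 3.79 for ERO1A (0.000223) and 2.81 for INSIG2 (9.97e-05). GC corrected, the differences of CA9 (-3.70, adjusted p = 0.0629), ADM (-0.29, 0.499) and ERO1A (0.36, 0.183) did not pass. Those of P4HA1 (-1.76, adjusted p = 0.00133) and INSIG2 (-0.78, 0.0471) passed with the opposite sign to the deposited ones. The corrected difference of CA9 passed without siOCT4 replicate 1 at 20% (-4.73, adjusted p = 0.0384).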

How the results depend on the processing

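Over the 10 genes and 5 comparisons, 50 of 50 results kept direction and side of the threshold without limma's trend and robust settings and with a pseudocount of 0.1, and 46 of 50 did with each culture centred on its median. There ADM in siOCT4 cells (-0.52) and the interaction of ANKRD37 (-2.10) passed as well, and CA12 and VEGFA in siOCT4 cells changed sign without passing. GC corrected, 26 of 50 kept both, 11 calls were lost and 1 gained with their direction, and 12 signs changed, 3 of them in results that passed on neither scale; corrected for GC content and length, 21, 13, 2, 14 and 5. The number of genes past the threshold (10 members, then all tested genes) went from 7 and 8450 to 3 and 2241 GC corrected, and to 3 and 2444 with length as well, for siOCT4 at 20% oxygen. For siOCT4 at 1% it went from 7 and 9672 to 4 and 6233 with length, for 1% oxygen in siOCT4 cells from 5 and 9362 to 1 and 5646, and to 2 and 4484 with length, and for the interaction from 8 and 10893 to 5 and 6665, and to 3 and 6451 with length. Among results that passed on at least 1 scale, the signs that changed were P4HA1 and INSIG2 for siOCT4 at 20% (0.54 and 0.067; with length 0.55 and 0.064), P4HA1, ERO1A and INSIG2 for siOCT4 at 1% (-1.21, -0.079 and -0.71; with length -1.10, -0.21 and -0.50), INSIG2 for oxygen in NC cells (0.53; with length 0.54) and in siOCT4 cells (-0.25; with length -0.027), and P4HA1 and INSIG2 in the interaction (-1.76 and -0.78; with length -1.65 and -0.57). What caused these shifts was not tested. Among only the 8106 genes without recurrent ratios, 4 members remained to test. Of these, 4, 4, 4, 2 and 4 passed in the order siOCT4 at 20%, siOCT4 at 1%, oxygen in NC, oxygen in siOCT4 and interaction. Fewer genes were tested there, and most of them passed in each comparison. In the same order, 6275, 6438, 6246, 6504 and 6892 of the 8106 genes passed.

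With a culture left out, 5063 to 9244 genes passed for siOCT4 at 20%. GC corrected, the ranges were 0 to 2 members and 2 to 1864 genes for siOCT4 at 20%, 4505 to 7196 genes for siOCT4 at 1%, 4 to 5 members for oxygen in NC cells, 1 to 2 members and 2096 to 6130 genes for oxygen in siOCT4 cells, and 3 to 5 members for the interaction. Of 400 member results of such fits, 372 kept direction and call as deposited and 334 GC corrected; 11 and 20 changed sign, in results that passed in neither fit.

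The replicate numbers did not pair the cultures: correlations of same-numbered deviations ran from -0.233 to 0.0225 over the 6 pairs of groups. With the replicate block, 1 of 50 deposited calls was lost, NDRG1 with oxygen in siOCT4 cells (adjusted p = 0.0664), and 7354 genes passed for siOCT4 at 20%. With the block, GC corrected, 4 of 50 were lost, and 476 genes passed for siOCT4 at 20%.

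The depth behind the ratios is unknown. With 2 cultures per group and no RNA or RNC levels, a change of ratio cannot be assigned to either.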
